A study of Mus musculus with 2 samples.

Results

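RNA of mast cells grown from mouse bone marrow was examined for genes of cell division, DNA replication and DNA repair. The genes were taken by symbol: names starting with Cdca, Cenp, Aurk, Bub, Fanc, Ncap or Top, names formed of Cdc, Kif, Mcm, Rfc, Orc, E2f, Plk, Gins, Rad or Xrcc and a digit, names formed of Ccn and a letter, and Pcna, without the Cdc42 group and without names starting Topa, Topo or Tops. This rule took 45 of the 8139 symbols in the table, and it uses symbols only. In the GENCODE mouse annotation it matches 214 protein-coding genes, of which 42 were in the table under that symbol. Most genes of these families therefore could not be examined. The Tet2-/- cells gave 1 library and wild type (WT) cells gave 1 library, both from C57BL/6 mice and with no treatment named in the labels. Both cultures stood for 4 to 6 weeks in 10% serum with interleukin-3 at 10 ng/ml and stem cell factor at 5 ng/ml, and surface staining for c-Kit and the IgE receptor gave a purity above 97.5%. How the Tet2 allele was disrupted, and how many mice gave each culture, is not given in the sources used here. TET2 converts 5-methylcytosine of DNA to its hydroxymethyl form. The symbol Tet2 was not analysed here, and expression values therefore give no check of the genotypes. With 1 library per genotype no difference was tested and no p-value exists.

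Values are RPKM, reads scaled to gene model length and to mapped reads of the library. The spacing of the low values implied 32100000 fragments for the Tet2-/- library and 31100000 for the WT library. From these depths and the transcript lengths, a 95% interval was set on each ratio of Tet2-/- to WT RPKM. It covers counting error only, not the spread between cultures. Among markers of the culture, the 3 mast cell markers in the table (Gzmb, Fcer1g and Slc18a2) were between 438 and 1994 RPKM in the Tet2-/- library and between 572 and 1770 RPKM in the WT library. Gzmb was higher in Tet2-/-, at a ratio of 1.13 to WT, while Fcer1g (0.74) and Slc18a2 (0.86) were lower. The 5 macrophage and monocyte markers in the table summed to 23.4 RPKM in Tet2-/- and 0.985 RPKM in WT, and all 5 were higher in Tet2-/-. The 3 neutrophil and precursor markers summed to 10.1 RPKM in Tet2-/- and 1.12 RPKM in WT, with Csf3r at 0.01 in both, and the part of such cells in the results below was not tested. In bulk RNA, fewer dividing cells and less RNA of a gene per cell cannot be told apart.

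Dividing cells pass through DNA replication in S phase and chromosome segregation in mitosis, and each stage has its own gene set. Before S phase the E2F factors switch on genes for the replication machinery, many of them through an E2F site in the promoter. Genes of G2 and mitosis are held silent in resting cells by the DREAM complex and then induced, typically through a CHR element (cell cycle genes homology region) lying near CCAAT boxes bound by NF-Y. Interleukin-3 and stem cell factor are the cytokines that keep mast cell cultures dividing.

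Promoter letters were compared with that textbook scheme, independently of the expression values. RefSeq windows from 250 bases before to 50 bases after the start (build GRCm38.p6, which is mm10) were found for 35 of the 45 genes, in 36 windows because Kif1b has 2. Both strands were searched. The E2F core was spelled TTTCCCG, with the other allowed forms being TTTGGCG, further TTTCGCG, or finally TTTGCCG. The CHR was spelled TTTGAA, with the other form being TTCGAA. The NF-Y box was spelled CCAAT here. The box lay in 21 of 36 windows (58.3%), against 37.4% of all 32851 RefSeq windows. An E2F core lay in 8 (22.2%), against 6.70% of all windows. These 8 were the windows of Gins3, Cdc25a, Mcm10, Plk5, Cdc73 and Ccno and both windows of Kif1b, which overlap and share the core. Kif1b, Cdc73 and Ccno are not placed in division, replication or repair roles below, and Plk5 and Ccno were under 1 RPKM. A CHR match lay in 9 (25.0%), against 19.2% of all windows, and a CHR match together with CCAAT in 8 (22.2%), against 7.52%. For the members of at least 1 RPKM the shares were 59.4% for CCAAT, 18.8% for an E2F core and 28.1% for CHR, of 32 windows. In the 1873 windows of all protein-coding genes of at least 1 RPKM in the table they were 36.4%, 10.8% and 13.3%. A match is a run of letters and not a site shown to be bound.

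**Figure D1:**
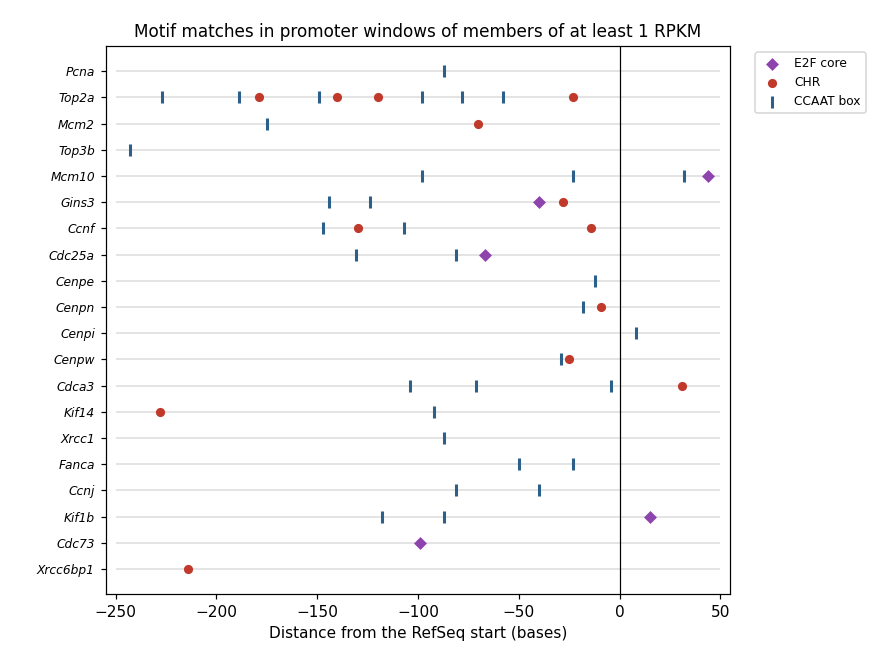
Positions of E2F core, CHR and CCAAT matches relative to the RefSeq start, in bases, for the 20 members of at least 1 RPKM whose window held any (first window of Kif1b). Each grey line is 1 gene and 0 is the start. Top2a carries the most matches, 6 CCAAT and 4 CHR.

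The following stretches upstream of the start are shown because they hold the matches of the genes described next, CHR and CCAAT pairs in the first 5, a single CHR downstream of a CCAAT in Mcm2, an E2F core in Gins3 and Cdc25a, and the pair of CCAAT boxes of Fanca, the gene with the widest difference between the libraries. Capitals mark matches of the 3 motifs on either strand, so that ATTGG marks the box on the reverse strand, TTCAAA the CHR on the reverse strand, while CGGGAAA marks the E2F core on the reverse strand. Where a CCAAT and a CHR share letters, as in Cenpw, the capitals run together. The CHR of Cdca3 lies after the start and is not in its stretch.
Top2a: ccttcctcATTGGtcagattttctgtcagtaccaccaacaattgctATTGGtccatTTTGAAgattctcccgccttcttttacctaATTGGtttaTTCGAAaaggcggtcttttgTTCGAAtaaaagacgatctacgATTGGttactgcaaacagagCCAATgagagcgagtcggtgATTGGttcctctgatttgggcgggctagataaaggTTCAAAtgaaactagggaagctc
Ccnf: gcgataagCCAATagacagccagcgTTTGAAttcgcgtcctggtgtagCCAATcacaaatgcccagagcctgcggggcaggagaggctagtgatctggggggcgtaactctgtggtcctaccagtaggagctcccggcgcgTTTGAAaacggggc
Cdca3: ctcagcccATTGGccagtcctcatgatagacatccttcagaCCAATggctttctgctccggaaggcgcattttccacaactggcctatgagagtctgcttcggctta
Cenpn: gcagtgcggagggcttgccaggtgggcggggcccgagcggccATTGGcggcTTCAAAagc
Cenpw: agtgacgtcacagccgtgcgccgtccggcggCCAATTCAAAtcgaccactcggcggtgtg
Mcm2: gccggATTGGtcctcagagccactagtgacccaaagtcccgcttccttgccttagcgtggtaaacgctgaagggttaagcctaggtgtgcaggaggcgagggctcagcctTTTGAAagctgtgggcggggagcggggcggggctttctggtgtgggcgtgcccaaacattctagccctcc
Gins3: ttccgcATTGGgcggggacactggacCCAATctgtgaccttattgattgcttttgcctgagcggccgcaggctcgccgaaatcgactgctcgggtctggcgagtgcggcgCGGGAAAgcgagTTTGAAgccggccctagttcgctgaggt
Cdc25a: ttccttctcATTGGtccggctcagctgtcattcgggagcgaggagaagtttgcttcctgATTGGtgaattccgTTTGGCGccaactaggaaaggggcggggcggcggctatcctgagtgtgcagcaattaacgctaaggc
Fanca: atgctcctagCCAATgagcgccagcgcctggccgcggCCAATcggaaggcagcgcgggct
In mm10 these are, in the same order, chr11:99024190-99024424 (minus strand), chr17:24251410-24251564 (minus strand), chr6:124830064-124830170 (plus strand), chr8:116921680-116921739 (plus strand), chr10:30200541-30200600 (minus strand), chr6:88898781-88898960 (minus strand), chr8:95633409-95633558 (plus strand), chr9:109875439-109875578 (plus strand) and chr8:123318577-123318636 (minus strand).

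As a whole the genes that were in the table were close in the 2 libraries. Of the 45, 38 had a mean of at least 1 RPKM. Log2 folds were taken of RPKM + 1, so that differences of low genes are understated. On that scale 0 of the 38 were higher by 2-fold or more in Tet2-/- (2.9% of all 2107 models past the same filter) and 0 were lower (1.61%). At 1.5-fold the counts were also 0 higher (5.84% of all models) and 0 lower (3.61%). All 38 lay within 1.5-fold (90.6% of all models), and 35 of 38 (92.1%) within 1.2-fold, against 72.8% of all models. Level bears on that comparison, so it was repeated in protein-coding genes of at least 10 RPKM, where 24 of 25 lay within 1.2-fold (82.1% of 1176 genes) and 25 of 25 within 1.5-fold (95.8%).

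The direction leaned slightly to the Tet2-/- side. The value was higher in Tet2-/- for 25 of 38 (65.8%), against 52.0% of all models, and for 24 of 38 (63.2%) after the libraries were scaled to the same median ratio, against 50.0%. Among protein-coding genes of at least 10 RPKM it was higher for 17 of 25 (68.0%), against 54.5%. The median log2 fold was 0.06, between -0.25 for Rad51d and 0.55 for Fanca, beside 0.01 over all models. Counting intervals lay above a ratio of 1 for 14 of 38 (27.0% of the 1925 models with an interval) and below 1 for 5 (23.5%), and 19 included 1.

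**Figure D2:**
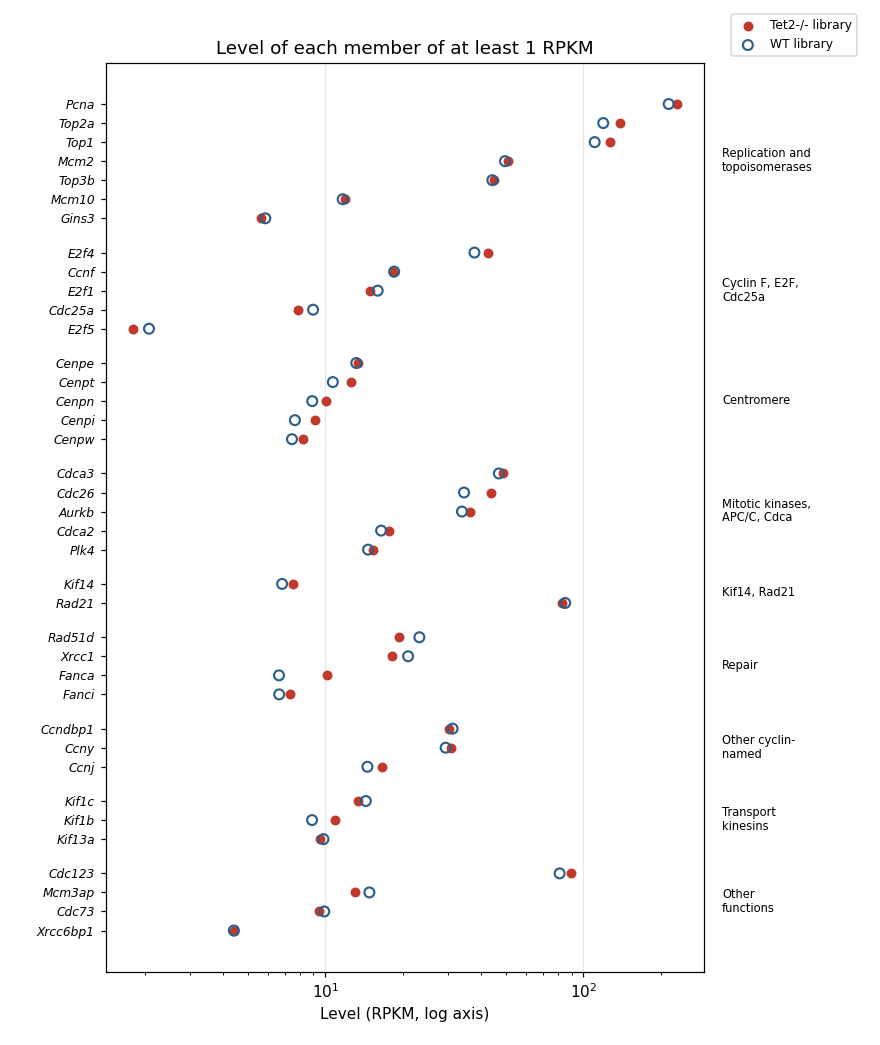
RPKM (log axis) of the 38 members of at least 1 RPKM, grouped by role, with filled red points for the Tet2-/- library and open blue circles for the WT library. Most pairs of points lie close together, and Fanca, at 10.2 RPKM in Tet2-/- and 6.62 RPKM in WT, is the widest apart.

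**Figure D3:**
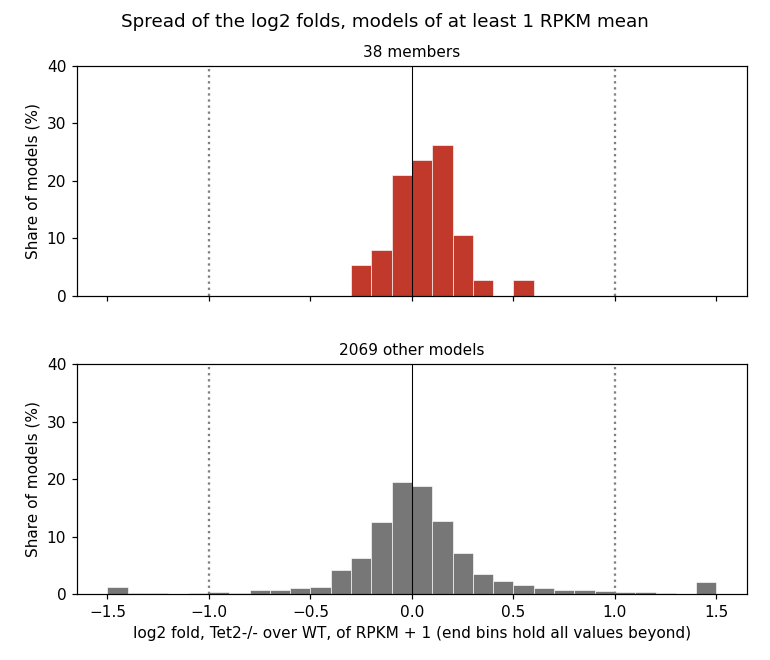
Share of models (percent) per bin of log2 fold, Tet2-/- over WT, of RPKM + 1, for the 38 members (top) and the 2069 other models of at least 1 RPKM (bottom). Dotted lines mark 2-fold, and the members span -0.25 to 0.55.

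Replication and topoisomerase genes held the 3 highest values of the set. Pcna, the sliding clamp that holds polymerases on DNA, was at 230 RPKM in Tet2-/- and 214 RPKM in WT, a ratio of 1.07 (1.04 to 1.11). A processed pseudogene, Pcna-ps2, matches 51.4% of its transcript at 99.2% identity, so reads may be shared. Top2a, the topoisomerase that untangles sister chromatids, was at 139 RPKM in Tet2-/- and 119 RPKM in WT, a ratio of 1.16 (1.14 to 1.18), and Top1, which nicks a single strand to release supercoils, at 126 RPKM in Tet2-/- and 110.5 RPKM in WT, a ratio of 1.14 (1.12 to 1.17). These were ranks 1 to 3 of the 45 in both libraries and rest on 8934 to 22436 fragments. Helicase genes differed less. Mcm2, a subunit of the ring helicase loaded at origins, was at 51.2 RPKM in Tet2-/- and 49.7 RPKM in WT, Mcm10, which helps activate that helicase, at 11.9 RPKM in Tet2-/- and 11.7 RPKM in WT, and Gins3, of the GINS complex that completes the active helicase, at 5.62 RPKM in Tet2-/- and 5.86 RPKM in WT. Top3b, a topoisomerase that also acts on RNA, was at 45.0 RPKM in Tet2-/- and 44.4 RPKM in WT, and overlaps Vpreb1 on the opposite strand. All 4 intervals included 1, that of Gins3 from 0.70 to 1.31 on 86 fragments in Tet2-/- and 87 in WT. Of these 7 genes, 6 had the higher value in Tet2-/- (52.0% of all models), and the median log2 fold was 0.04.

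Of the cell cycle cyclin, Cdc25 and E2F genes, 4 of 5 had the lower value in Tet2-/-, where 52.0% of all models had the higher value. The group median was -0.09 on the log2 scale. The interval of 1 of them, Cdc25a, lay below 1, that of E2f4 lay above 1, and those of the other 3 included 1. Cdc25a, the phosphatase that activates cyclin-dependent kinases, was at 7.81 RPKM in Tet2-/- and 8.97 RPKM in WT, a ratio of 0.87 (0.78 to 0.97). E2f1, the activating E2F factor, was at 14.9 RPKM in Tet2-/- and 16.0 RPKM in WT, with an interval of 0.86 to 1.01. The gene with the higher value was E2f4, an E2F factor known for repression in resting cells, at 42.8 RPKM in Tet2-/- and 37.8 RPKM in WT, a ratio of 1.13 (1.07 to 1.20). It was the most abundant E2F gene in the table in both libraries. E2f5, its close relative, was at 1.80 RPKM in Tet2-/- and 2.08 RPKM in WT, with an interval of 0.64 to 1.16. E2f5 shares exon sequence on the opposite strand with 1810022K09Rik, which stood at 144 RPKM in Tet2-/- and 138 RPKM in WT, so its few reads cannot be assigned with certainty. Ccnf, whose protein is both a cyclin and the substrate receptor of a ubiquitin ligase, was at 18.3 RPKM in Tet2-/- and 18.5 RPKM in WT.

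Centromere genes all had the higher value in Tet2-/-, 5 of 5 (52.0% of all models), though 3 of the 5 counting intervals included 1. Their median log2 fold was 0.16 and none reached 1.2-fold. Cenpi, of the constitutive centromere network on which the kinetochore is built, was at 9.12 RPKM in Tet2-/- and 7.63 RPKM in WT, a ratio of 1.20 (1.08 to 1.32). Cenpt, a histone-fold protein that links centromeric DNA to the microtubule-binding kinetochore, was at 12.6 RPKM in Tet2-/- and 10.7 RPKM in WT, a ratio of 1.18 (1.05 to 1.32). Its partner Cenpw was at 8.17 RPKM in Tet2-/- and 7.43 RPKM in WT, with an interval of 0.94 to 1.28. The remaining pair were also within counting error. Cenpn, which reads the centromeric nucleosome, was at 10.1 RPKM in Tet2-/- and 8.90 RPKM in WT, with an interval of 0.93 to 1.39, and the kinetochore motor gene Cenpe at 13.4 RPKM in Tet2-/- and 13.2 RPKM in WT. Cenpt overlaps exons of Tsnaxip1 on the opposite strand.

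Of the mitotic regulators past the filter, 5 of 5 were higher in Tet2-/- (52.0% of all models), with a group median of 0.09 on the log2 scale. Counting intervals lay above 1 for 3 of them and included 1 for 2. Cdc26, a small subunit of the anaphase-promoting complex (APC/C, the ubiquitin ligase that triggers sister separation), was at 43.8 RPKM in Tet2-/- and 34.5 RPKM in WT, a ratio of 1.27 (1.13 to 1.43). Its longest basic transcript, the annotation's tag for its representative models, has 819 bases, but a transcript of 4326 bases is also annotated. A processed pseudogene, Gm9174, matches 255 bases of the 4326-base transcript at 98.8% identity, so reads may be shared. Protein-coding genes with a longest basic transcript under 1000 bases were shifted in general, 74 of 90 being higher in Tet2-/-, where the median log2 fold was 0.20, against 850 of 1685 and 0.0013 for longer genes. The part of transcript length in the value of Cdc26 was not tested. It was the one member past the filter in that class of basic transcripts, and of the 37 longer members 24 were higher in Tet2-/- and the median log2 fold was 0.05.

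Aurkb, the kinase of the chromosomal passenger complex, was at 36.4 RPKM in Tet2-/- and 33.8 RPKM in WT, a ratio of 1.07 (1.01 to 1.15). Cdca2, which targets a phosphatase to chromatin at mitotic exit, was at 17.6 RPKM in Tet2-/- and 16.5 RPKM in WT, a ratio of 1.07 (1.00 to 1.14). The intervals of the other two included 1. Cdca3, known for promoting mitotic entry, was at 48.7 RPKM in Tet2-/- and 47.0 RPKM in WT, and Plk4, the kinase of centriole duplication, which has a pseudogene copy, at 15.3 RPKM in Tet2-/- and 14.6 RPKM in WT. Kif14, a kinesin of cytokinesis, was at 7.48 RPKM in Tet2-/- and 6.81 RPKM in WT, a ratio of 1.10 (1.03 to 1.17). Rad21, the cohesin subunit cut at anaphase, was at 82.7 RPKM in Tet2-/- and 85.0 RPKM in WT, with an interval of 0.95 to 1.0004, which just included 1.

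**Figure D4:**
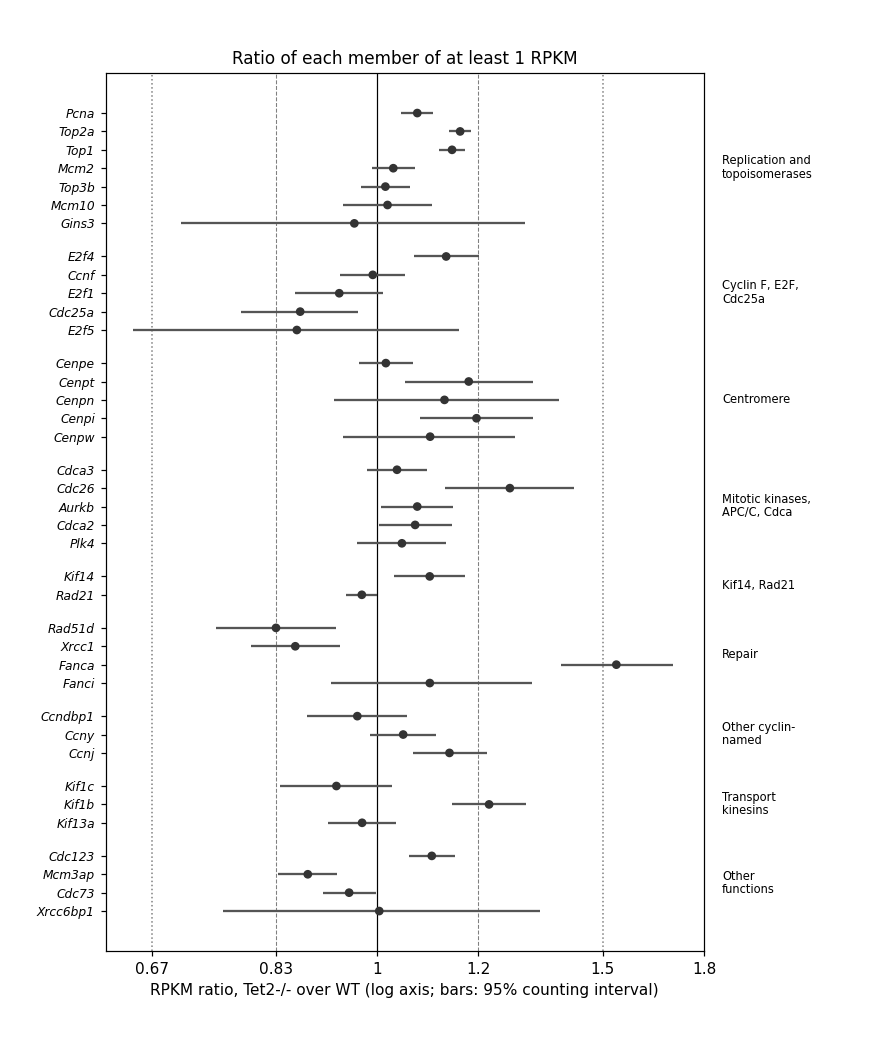
Ratio of Tet2-/- to WT RPKM (log axis) for the 38 members of at least 1 RPKM, with points for the ratio and bars for the 95% counting interval. Dashed lines mark 1.2-fold, dotted lines 1.5-fold and the solid line a ratio of 1. Fanca alone has its point past 1.5, while the repair genes Rad51d and Xrcc1 lie on the other side of 1.

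Repair genes were divided, with 2 of 4 higher and 2 lower. Fanca encodes a subunit of the Fanconi anaemia core complex, the ubiquitin ligase that starts the repair of crosslinked DNA. It was at 10.2 RPKM in Tet2-/- and 6.62 RPKM in WT, a ratio of 1.54 (1.39 to 1.70) on 1013 and 638 estimated fragments. This is past 1.5-fold as a ratio of RPKM and below it on the log2(RPKM + 1) scale, where it was 0.55. Fanca (chromosome 8, 123268300 to 123318576) overlaps exons of Zfp276 on the opposite strand, and whether the libraries kept strand is not stated, so reads of both may be included. Fanci, of the complex that the core ubiquitinates, was at 7.29 RPKM in Tet2-/- and 6.63 RPKM in WT, with an interval of 0.92 to 1.32, and overlaps Polg.

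The lower pair belong to other routes. Rad51d, a gene of homologous recombination (chromosome 11, 82876434 to 82890614), was at 19.3 RPKM in Tet2-/- and 23.2 RPKM in WT, a ratio of 0.83 (0.75 to 0.93), the lowest of the 38. Xrcc1, the scaffold of single-strand break repair (chromosome 7, 24546289 to 24573440), was at 18.1 RPKM in Tet2-/- and 20.9 RPKM in WT, a ratio of 0.86 (0.80 to 0.94). Neither overlaps an annotated exon of another gene. Basic transcripts of Rad51d run from 1201 to 3426 bases, so a change in which isoform is made would also move its RPKM, and this was not tested.

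The symbol rule also took genes that do not act in division, replication or repair as far as is known from textbooks, or whose role there is not established. They were 15 of the 45, including 2 pseudogenes, and 10 passed the filter with a median log2 fold of -0.02, 5 higher and 5 lower. The 28 with division, replication or repair roles had 0.08, 20 higher and 8 lower. Of all models 52.0% were higher. Roles were assigned with earlier results of these data known, so the split is a description only. Kif1b, a kinesin that carries organelles along axons and other cell processes, was at 10.9 RPKM in Tet2-/- and 8.89 RPKM in WT, a ratio of 1.22 (1.15 to 1.31). Other cargo kinesins were on the other side. Kif1c was at 13.3 RPKM in Tet2-/- and 14.4 RPKM in WT, and Kif13a at 9.58 RPKM in Tet2-/- and 9.84 RPKM in WT, both with intervals that included 1.

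Of the remaining genes with cyclin names, Ccnj was at 16.6 RPKM in Tet2-/- and 14.6 RPKM in WT, a ratio of 1.14 (1.07 to 1.22). Ccny, a membrane-bound cyclin, was at 30.7 RPKM in Tet2-/- and 29.3 RPKM in WT, and Ccndbp1, which encodes a binding partner of D cyclins, at 30.1 RPKM in Tet2-/- and 31.1 RPKM in WT. Both intervals included 1. Cdc123, an assembly factor of a translation initiation complex, was at 89.2 RPKM in Tet2-/- and 80.9 RPKM in WT, a ratio of 1.10 (1.06 to 1.15). Mcm3ap, of mRNA export, was at 13.1 RPKM in Tet2-/- and 14.8 RPKM in WT, a ratio of 0.88 (0.84 to 0.93), and Cdc73, of a transcription elongation complex, at 9.43 RPKM in Tet2-/- and 9.91 RPKM in WT, a ratio of 0.95 (0.91 to 0.997). Xrcc6bp1, listed in RefSeq as the mitochondrial protease gene Atp23, was at 4.44 RPKM in Tet2-/- and 4.43 RPKM in WT. Each of Cdc123, Mcm3ap and Cdc73 overlaps a gene on the opposite strand.

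The 7 members below the filter include genes known from neurons, germ cells or ciliated cells, and both pseudogenes. Kif5a, a neuronal kinesin, was at 0.295 RPKM in Tet2-/- and 0.392 RPKM in WT, with an interval of 0.47 to 1.17. Aurkc, the Aurora kinase of meiosis, was listed at 0.01 in Tet2-/- and at 0.124 RPKM in WT on 4 estimated fragments. Ccno, known from cells that build many cilia, was at 0.0553 RPKM in Tet2-/- and 0.0188 RPKM in WT, on 3 and 1 fragments. The antisense neighbour of Fancd2, Fancd2os, was at 0.0853 RPKM in Tet2-/- and 0.108 RPKM in WT. Ccnd3-ps was at 0.0446 RPKM in Tet2-/- and listed at 0.01 in WT, and Kif4-ps and Plk5 were at 0.01 in both. The counting intervals of the 5 with any fragments included 1, so no difference was detectable at this depth.

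Log2 folds were also grouped by the promoter letters, with no test. The 9 members past the filter with a CHR match had a median log2 fold of 0.05, and the 22 without had 0.04. The 18 with CCAAT had 0.08 and the 13 without had 0.0046. The 5 with an E2F core had -0.05 (Gins3, Cdc25a, Cdc73, Mcm10 and Kif1b, between -0.18 and 0.26) and the 26 without had 0.08. These are descriptions of few genes that share both libraries.

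Other genes of the same pathways that the symbol rule misses were taken from a list of 191 genes, of which 28 were in the table, all past the filter. On the log2(RPKM + 1) scale, 0 of these were higher by 2-fold or more (2.9% of all models past the filter) and 0 were lower (1.61%). At 1.5-fold, 0 were higher (5.84% of all models) and 1 was lower (3.61%). Their median log2 fold was 0.03, with 15 higher and 13 lower. The exception was Lin9 (chromosome 1, 180641150 to 180690694), a subunit of the MuvB core shared by the DREAM complex and the activators of mitotic genes. It was at 0.966 RPKM in Tet2-/- and 2.31 RPKM in WT, a ratio of 0.42 (0.32 to 0.54) on 93 and 215 estimated fragments. As a plain ratio of RPKM it was therefore 2.39-fold lower in Tet2-/-, past 2-fold. On the log2(RPKM + 1) scale this was -0.75, a larger difference than that of any of the 38 members or the other 27 list genes past the filter.

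Of the other genes on the list, those named from here on were chosen after their values were seen. Tfdp1, the dimer partner of E2F proteins, was at 76.3 RPKM in Tet2-/- and 79.4 RPKM in WT, with an interval of 0.92 to 1.01. A processed pseudogene, Gm7390, matches 755 bases of the Tfdp1 transcript at 99.1% identity, so reads may be shared. The inhibitor gene Cdkn2d, which restrains the cyclin D kinases, was at 35.6 RPKM in Tet2-/- and 24.3 RPKM in WT. Its ratio of 1.47 (1.34 to 1.60) was the highest of the 28.

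Subunits of the APC/C could be compared across the list and the symbol rule. Anapc11, the catalytic RING subunit, was at 85.2 RPKM in Tet2-/- and 62.7 RPKM in WT, a ratio of 1.36 (1.27 to 1.45), beside 1.27 for Cdc26. Basic transcripts of Anapc11 run from 962 to 3229 bases, and the part of transcript length in both values was not tested. Of the 5 subunits in the table, 3 had the higher value in Tet2-/- and 2 the lower. Anapc2, the cullin, was at 53.9 RPKM in Tet2-/- and 58.0 RPKM in WT, a ratio of 0.93 (0.89 to 0.97), and Anapc5 at 97.7 RPKM in Tet2-/- and 98.4 RPKM in WT, with an interval of 0.96 to 1.03. Anapc5 has several copies, of which Gm10482 matches 30.8% of its transcript at 93.9% identity, so reads may be shared. Anapc10, the third with the higher value, was at 4.75 RPKM in Tet2-/- and 4.38 RPKM in WT, with an interval of 0.94 to 1.25. The replicative ligase gene Lig1, which seals Okazaki fragments, was at 33.5 RPKM in Tet2-/- and 38.9 RPKM in WT, a ratio of 0.86 (0.82 to 0.90). Lig1 overlaps exons of Zswim9 on the opposite strand.

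**Figure D5:**
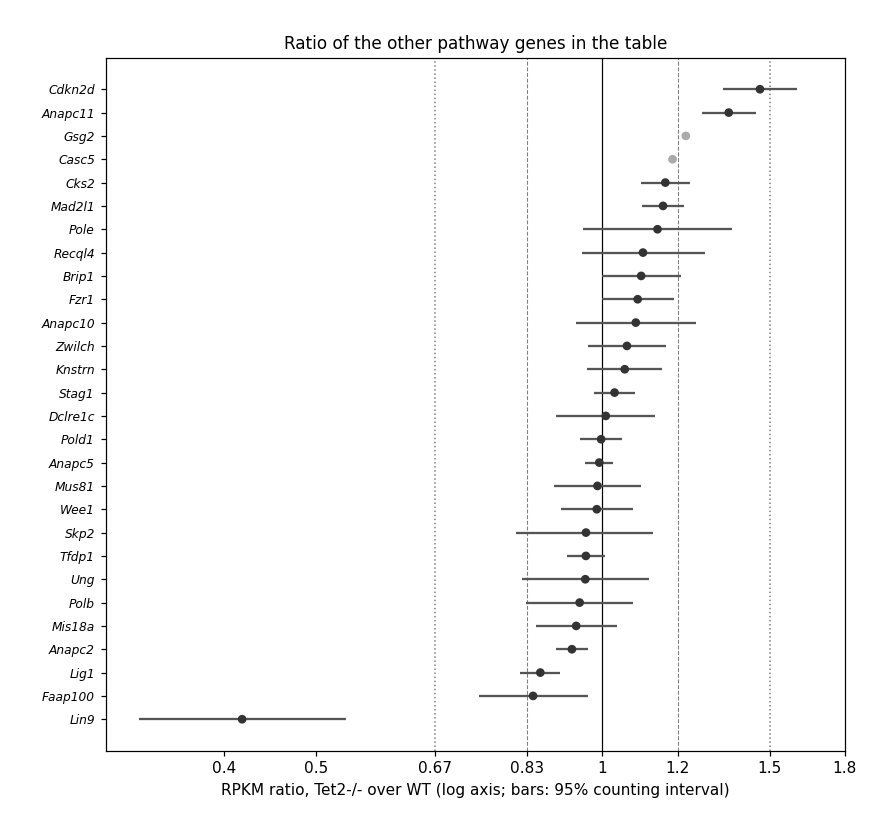
Ratio of Tet2-/- to WT RPKM (log axis) for the 28 other pathway genes in the table, ordered by ratio, with bars for the 95% counting interval and grey points for the genes Gsg2 and Casc5, which have no interval. Lines are as for the members. Lin9, at 0.42, lies apart from the other genes.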

How the data were processed

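RNA was sequenced from 1 Tet2-/- and 1 WT culture of bone marrow derived mast cells; per the labels' protocols, a TruSeq RNA kit was used on 1 µg of total RNA. RPKM values were deposited by the authors in 1 column for each genotype, as the file headers say. Per the submitters' processing notes, reads were placed on mm10. Which aligner and counter were used is not stated in the sources used here. The value 0.01 stands for 57.4% of models in Tet2-/- and 58.1% in WT and was read as no reads, although 80 and 67 models lie below it.

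Members, roles and the other pathway list were chosen with earlier results of these data known. Symbols were matched to GENCODE mouse release 21 (44 of 45 members by symbol, Xrcc6bp1 through a RefSeq synonym). Depth was the value at which RPKM times length (less 175 bases) gave whole fragments within 0.1. This held for 95.0% of 317 single-transcript genes in Tet2-/- and 95.7% of 300 in WT. Chance gives 20% at a fixed setting, but depth and the 175 bases were chosen from many settings for a high share. For a 2 kb transcript, 1 RPKM is then 58.6 fragments in Tet2-/- and 56.8 in WT. Intervals are exact Clopper-Pearson intervals from the shortest basic transcript. Genes where that transcript is under 400 bases, or whose symbol did not match a single annotated gene, have no interval. Log2 folds use RPKM + 1. Models entered where the 2 libraries averaged 1 RPKM or more. A fixed 2-fold rule replaced a test, and any member past the filter could be named. Calls and depth were tested on simulated data. Transcripts were compared with all others by blastn 2.17.0 (at least 90% identity over 200 bases). Copies covering at least 30% of the longest annotated transcript were found for Pcna and Plk4 past the filter. They were also found for Aurkc and Ccnd3-ps below it, so reads of these genes may be shared. The transcript compared for Cdc26 has 4326 bases, so copies of its short basic transcripts can fall below 30%. Of the 38 members past the filter, 8 overlap exons on the opposite strand. Software was scipy 1.17.1, pandas 2.3.3, numpy 2.4.6 and matplotlib 3.10.9 under Python 3.11.15. Other pseudocounts, filters, thresholds, scaling and transcript lengths were tried.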

Additional observations from a re-analysis of the deposited data

How the results depend on the processing

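The count of members past 2-fold was 0 in each direction under pseudocounts of 0.1 and 5, no filter, a mean of at least 5 RPKM, median-ratio scaling and a 1.5-fold threshold. The median log2 fold of the members stayed between 0.04 and 0.06 and that of the other pathway genes between 0.01 and 0.03. Counting intervals above 1 numbered 12 with median-ratio scaling and 17 with the longest transcript, against 14, and those below 1 numbered 6 in both, against 5. Of 114 alternative log2 folds of the 38 members, all but those of Fanca and Kif1b under a pseudocount of 5 stayed within the member's counting interval. Fanca was then at 0.39 against 0.55, and Kif1b at 0.19 against 0.26, just below its interval. Another 1 changed sign, Xrcc6bp1 under scaling. No paired analysis was possible because there is 1 library of either genotype, which is also why none could be left out. Depth limits the members under 0.4 RPKM, which rest on few fragments.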

Other observations

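The shift of short transcripts reaches beyond cell division genes. Summed over protein-coding genes with a longest basic transcript under 1000 bases, RPKM was 23840 in Tet2-/- and 19381 in WT, a ratio of 1.23, and over longer genes 74339 in Tet2-/- and 71769 in WT, a ratio of 1.04. Among the 90 short genes of at least 1 RPKM, 8 stood at least 2-fold higher and 0 lower, against 22 and 16 of 1685 longer ones. The largest fold of the short genes was that of the monocyte marker Ly6c2, at 18.8 RPKM in Tet2-/- and 0.479 RPKM in WT. The part of such cells in the counts was not tested. Cks2, which binds cyclin-dependent kinases and has a basic transcript of 692 bases, was at 148 RPKM in Tet2-/- and 127 RPKM in WT, a ratio of 1.17 (1.10 to 1.24). Cks2 has near-identical pseudogenes. It and the length classes were chosen after the values were seen.

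The members summed to 1282 RPKM in Tet2-/- and 1201 RPKM in WT, a ratio of 1.07, which is 1.21% of the RPKM summed over the table in Tet2-/- and 1.24% in WT. The table as a whole summed to 1.09 times more in Tet2-/-.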
